A study of Homo sapiens with 40 samples.

Results

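The 7 genes of the insulin-like growth factor binding protein family, IGFBP1 to IGFBP7, were examined in chromatin immunoprecipitation sequencing data from EndoC-βH3 cells. They were taken by name from the 20007 protein-coding genes of the GENCODE 44 annotation. A peak was counted for a gene when it lay within 2 kb of one of the gene's start sites (the promoter), inside the gene, or closer to it than to any other protein-coding gene and within 100 kb. By this rule the family had 19 of 51489 H3K27ac peaks, 28 of 51457 CTCF peaks, 3 of 14886 enhancers of non-senescent cells, 4 of 13076 enhancers of senescent cells, and 0 of 2435 Rb regions. One H3K27ac peak, inside IGFBP5 but nearer to an IGFBP2 start site, was counted for both.

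EndoC-βH3 is a human beta-like cell line made from fetal pancreas, immortalised with SV40 Large T and hTERT, both of which can be cut out by a tamoxifen-activated Cre recombinase that all the cells carry. The labels give the genotype of every library as WT. The senescent cells had received 4-hydroxytamoxifen for 3 weeks, which removes both transgenes, and the non-senescent control cells had not and kept them, so treatment and loss of the transgenes cannot be told apart. All samples came from this single line. H3K27ac (acetylated histone H3, which marks promoters and enhancers in use) and CTCF (a factor bound at domain boundaries and loop anchors) were profiled in 3 libraries per state, and H3K4me1 (an enhancer mark) and Rb in 2 per state, each with its input, for a total of 40 libraries.

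Levels were available only as 1 mean per peak, which the authors took over all 6 libraries of both states after scaling each library by its size factor. No value per library or per state was used, so no spread between replicates, no senescent-against-control difference and no test can be given for a peak of these genes. The 2 states could be told apart only in the enhancer lists, where each state has its own, and in the Rb list, which holds regions with more signal in senescent cells. Summed over all peaks, the means came to 19239499 counts for H3K27ac and 6136424 for CTCF. Since peaks differ in width, levels are compared between genes per kb of peak. The median over all peaks was 66.6 counts per kb for H3K27ac and 69.4 for CTCF. As a check of the labelled cell type, all 10 beta-cell markers had an H3K27ac peak at the promoter, among them PAX6, PDX1 and INS, against 67.6% of all protein-coding genes. None of 4 fibroblast markers or 3 endothelial markers did. Such a peak was also found for 2 of 3 alpha-cell, 2 of 2 delta-cell, 1 of 4 acinar, 1 of 3 duct and 2 of 3 immune markers. The weakest beta-cell marker was MAFA, at 49.5 counts per kb, and of the markers of other pancreatic cells CPA1, an acinar enzyme, had 298 and IRX2, an alpha-cell regulator, had 303.

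Insulin-like growth factor binding proteins are secreted carriers of IGF1 and IGF2. They hold the growth factors away from their receptor, IGF1R, or release them next to it after being cut by proteases. IGFBP3 and, to a lesser extent, IGFBP5 carry IGFs in blood in a complex with IGFALS, IGFBP1 is a liver protein that insulin represses, IGFBP4 is cut by the protease PAPPA, IGFBP6 prefers IGF2, and IGFBP7 binds IGFs only weakly. Several of them are known as factors released by senescent cells in other tissues.

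The sequences that the following results turn on are shown first. The promoters of IGFBP5, IGFBP3 and IGFBP4 are given as 250 bases before the start site (RefSeq, GRCh38.p14), since IGFBP5 carried broad H3K27ac there and the other two genes carried CTCF without H3K27ac. Capitals mark a TATA box (TATAAA) or a GC box (GGGCGG, or CCGCCC on the other strand). Only these exact strings were searched, so variant forms are not marked.
IGFBP5 promoter, chr2:216695550-216695799, minus strand: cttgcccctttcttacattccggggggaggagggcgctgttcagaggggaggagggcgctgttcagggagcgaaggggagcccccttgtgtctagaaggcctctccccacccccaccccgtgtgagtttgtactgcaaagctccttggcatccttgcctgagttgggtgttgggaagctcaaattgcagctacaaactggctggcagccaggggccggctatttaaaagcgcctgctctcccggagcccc
IGFBP3 promoter, chr7:45921273-45921522, minus strand: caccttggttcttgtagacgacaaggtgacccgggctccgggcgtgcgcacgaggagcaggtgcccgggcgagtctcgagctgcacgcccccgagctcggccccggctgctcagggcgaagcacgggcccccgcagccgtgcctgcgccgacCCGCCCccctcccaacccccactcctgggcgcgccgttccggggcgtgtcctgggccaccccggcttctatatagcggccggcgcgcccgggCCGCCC
IGFBP4 promoter, chr17:40443200-40443449, plus strand: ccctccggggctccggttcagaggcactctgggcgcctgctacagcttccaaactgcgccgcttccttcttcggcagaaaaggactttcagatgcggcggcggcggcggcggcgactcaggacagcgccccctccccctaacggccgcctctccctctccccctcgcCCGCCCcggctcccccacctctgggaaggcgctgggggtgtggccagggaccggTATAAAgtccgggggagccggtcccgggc

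These promoters differed in base composition. Over 250 bases, GC content was 76.0% for IGFBP3, 71.6% for IGFBP4, 69.2% for IGFBP2 and 61.2% for both IGFBP5 and IGFBP6, against a median of 58.0% over 35116 upstream windows in the RefSeq table. The ratio of observed to expected CpG pairs, which is high in CpG islands, was 0.90 for IGFBP3, 0.81 for IGFBP2 and 0.76 for IGFBP4, but 0.34 for IGFBP5 and 0.38 for IGFBP6. The median over all windows was 0.56. The table held 5 of the 7 genes, and IGFBP1 and IGFBP7 had no entry. GC boxes were found before IGFBP2, IGFBP3, IGFBP4 and IGFBP6, and in 42.6% of all windows. The TATA box of IGFBP4 began 29 bases before its start site, and 10.7% of all windows had one. The CCAAT box (CCAAT, in 32.0% of windows), the insulin response core (TGTTTTG, 4.30%), an E2F motif (TTTCGCGC, 0.439%) and the 12-base CTCF core described next (2.02%) were searched on both strands and were found in none of the 5 windows.

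The CTCF core was searched as CCA, any 2 bases, AG, any 2 bases and GGC, on both strands. It was present in 4 of the family's 28 CTCF peaks, against 23.6% of all CTCF peaks and 3.40% of regions of the same widths placed 10 kb away. Of these peaks, 3 belong to IGFBP5 and the other to IGFBP6. The methods describe a filter of CTCF peaks for the CTCF motif, found with the program FIMO. Here only the exact core was searched, so variant forms of the motif were missed. Even among CTCF peaks of 100 counts or more, only 36.9% held the core. A peak without the core is therefore not shown to lack the motif. For the same reason, the share with the core cannot decide whether the peaks were listed before or after that filter. Whether each CTCF peak counted here passed the filter is not known. Each core is shown in capitals on its own strand with 9 bases on either side.
IGFBP5 intron, chr2:216682635-216682664, plus strand: tccatgtggCCAGCAGAGGGCgtgggagac
IGFBP5 intron, chr2:216687829-216687858, plus strand: tctgcatgaCCAGAAGGGGGCggcagggag
IGFBP5 upstream, chr2:216746457-216746486, minus strand: ggcctcctgCCAGGAGGTGGCgctttccag
IGFBP6 intron, chr12:53099605-53099634, minus strand: caccagaggCCAGAAGGGGGCgcacgaagc

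For enhancers, the middle 300 bases are shown for the one that was listed in senescent cells alone, upstream of IGFBP5, and for the one upstream of IGFBP3. Capitals mark a match to a loose AP-1 pattern (TGANTCA, with any base in the middle) or an E-box bound by NEUROD1 (CAGATG, or CATCTG on the other strand). These motifs, and a FOXA motif (TGTTTAC), were chosen after the data had been seen.
IGFBP5 enhancer of senescent cells, chr2:216761223-216761522, plus strand: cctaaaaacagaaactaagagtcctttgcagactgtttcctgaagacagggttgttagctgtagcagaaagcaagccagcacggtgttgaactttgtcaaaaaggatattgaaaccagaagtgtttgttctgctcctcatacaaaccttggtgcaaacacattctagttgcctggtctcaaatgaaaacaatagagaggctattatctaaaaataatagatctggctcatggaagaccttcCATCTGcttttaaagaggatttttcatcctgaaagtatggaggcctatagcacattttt
IGFBP3 enhancer, chr7:45978125-45978424, plus strand: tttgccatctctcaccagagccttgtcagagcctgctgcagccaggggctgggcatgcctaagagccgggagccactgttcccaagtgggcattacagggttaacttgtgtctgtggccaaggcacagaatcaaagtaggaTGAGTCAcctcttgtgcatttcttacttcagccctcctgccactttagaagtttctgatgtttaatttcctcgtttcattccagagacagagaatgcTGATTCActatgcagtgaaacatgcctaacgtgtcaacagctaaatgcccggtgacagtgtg
The IGFBP3 window held 2 matches to the loose AP-1 pattern, TGAGTCA and TGATTCA. The window of the senescent IGFBP5 enhancer held 1 E-box. The middle windows of the larger IGFBP5 enhancer and of the IGFBP7 enhancer held none of the 3 motifs. Over all senescent enhancers, 11.0% of middle windows matched the loose AP-1 pattern, 7.62% had a FOXA motif and 26.6% the E-box. Over all non-senescent enhancers 11.0%, 7.87% and 29.0% did.

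H3K27ac was found at the promoter of 2 of the 7 genes, IGFBP5 and IGFBP1, whereas 67.6% of all protein-coding genes had such a peak. The 2 peaks were very different. The IGFBP5 promoter lay in a peak of 13263 bp with a mean of 3396 counts, or 256 counts per kb. The IGFBP1 peak was 500 bp wide, the smallest width in the table, with 17.5 counts, or 35.1 per kb. The IGFBP5 level per kb was thus 7.30 times that of IGFBP1, and was higher than that of 72.3% of the 13525 genes with a promoter peak, while IGFBP1 was higher than 0.961% of them. No H3K27ac peak lay within 2 kb of any start site of IGFBP2, IGFBP3, IGFBP4, IGFBP6 or IGFBP7. Among genes in the RefSeq promoter table, 88.5% of the 8389 with a CpG ratio of 0.75 or more had an H3K27ac promoter peak, and 29.6% of the 3989 with a ratio of 0.5 or less did. IGFBP2, IGFBP3 and IGFBP4 are in the first of these groups and had no peak, whereas IGFBP5 and IGFBP6 are in the second, of which IGFBP5 had a broad peak and IGFBP6 none.

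A CTCF peak was listed at the promoter of every gene of the family, although most of these peaks lacked the exact core that was searched. All 7 genes had a CTCF peak within 2 kb of a start site, against 52.8% of protein-coding genes. Among genes with a CpG ratio of 0.75 or more, as for IGFBP2, IGFBP3 and IGFBP4, 65.3% had one. With a ratio of 0.5 or less, as for IGFBP5 and IGFBP6, 28.7% did. A CTCF peak without an H3K27ac peak at the promoter was found for 5 of the 7 (IGFBP2, IGFBP3, IGFBP4, IGFBP6 and IGFBP7) and for 8.94% of all genes. The 7 genes have between 1 and 7 annotated start sites each, IGFBP3 having the most, and lie in 2 close pairs and 3 single loci, so they are not 7 independent places in the genome. The promoter CTCF peaks were of unequal strength. For each gene, the promoter peak with the highest count was taken. Per kb, this peak had 149 counts at IGFBP3, 138 at IGFBP6, 115 at IGFBP4, 110 at IGFBP5 and 103 at IGFBP1, all above the median of 89.2 over the 10565 genes with such a peak. IGFBP7 had 48.8 and IGFBP2 had 18.8, which was higher than 0.700% of these genes. Another IGFBP3 promoter peak, of lower count, had 201 per kb. Of the family's 13 promoter CTCF peaks, only the IGFBP6 peak of 255 counts held the core. The IGFBP1 peak lay 1947 bp from the nearest start site, close to the limit of the window.

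**Figure D1:**
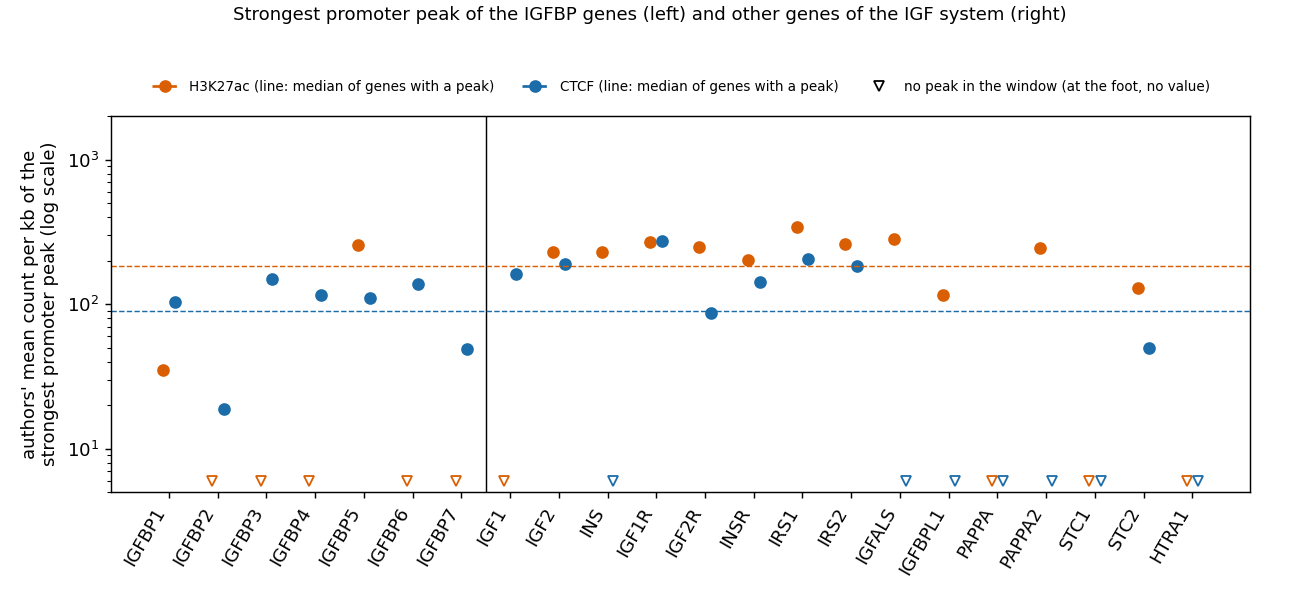
Authors' mean count per kb (log axis) of the strongest H3K27ac (orange) and CTCF (blue) peak, by count before division by width, within 2 kb of a start site, for the 7 IGFBP genes and 15 other genes of the IGF system; dashed lines are medians over genes with a peak, and open triangles at the foot stand for no peak. IGFBP5 is the one IGFBP gene above the orange line, at 256 counts per kb, and 5 IGFBP genes have a blue point with an orange triangle.

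The same windows were read for other genes of the system. Of 15 genes (ligands, receptors, adaptors and proteases of IGF signalling), 11 had an H3K27ac promoter peak and 8 had a CTCF promoter peak, shares near the 67.6% and 52.8% of all protein-coding genes. The H3K27ac peaks ranged from 115 to 340 counts per kb. Those of the receptors IGF1R and INSR and of the insulin receptor substrates IRS1 and IRS2 were among them, and so was that of IGFALS, the third partner of IGFBP3 and IGFBP5 in blood. IGF2 and INS are neighbours, and their promoters shared 1 peak with 3078 counts. The 4 genes with none were IGF1, PAPPA, STC1 and HTRA1, of which PAPPA and HTRA1 encode proteases that cut IGF binding proteins and STC1 an inhibitor of PAPPA. Its relative PAPPA2, which cuts IGFBP3 and IGFBP5, had a promoter peak of 1402 counts. Among the 11 were also STC2, another PAPPA inhibitor, IGF2R and IGFBPL1.

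The gene neighbours on either side that were not members numbered 10, and 8 of them had an H3K27ac promoter peak, again near the 67.6% of all genes. TOP2A, 25.6 kb from IGFBP4, had 151 counts per kb, SPRYD3, 18.0 kb from IGFBP6, had 186, and POLR2B, whose end overlaps that of IGFBP7, had 215. TNS3, 1353 kb from IGFBP3, had 214. The lowest was ADGRL3, 4090 kb from IGFBP7, at 42.1 counts per kb, higher than 2.39% of genes with a promoter peak. The 2 neighbours without a peak were CCDC201, next to IGFBP1, and TNS4, next to IGFBP4. Within 100 kb of the canonical start site, the summed H3K27ac was 7309 counts in 14 peaks for IGFBP5, 4474 in 9 peaks for IGFBP6 and 3775 in 9 peaks for IGFBP2, and was 145 in the same 2 peaks for IGFBP1 and IGFBP3. It was 526 counts for IGFBP4 and 518 for IGFBP7. The median over all genes was 1907 counts in 5 peaks, so 3 genes lay above it and 4 below. Of the IGFBP2 sum, however, 3396 counts came from the promoter peak of IGFBP5. For CTCF the sums ranged from 980 to 1533 counts, all above the median over genes of 663. These sums are not independent: IGFBP1 and IGFBP3 again shared theirs, 1158 counts in 8 peaks, and the stretches read for IGFBP2 and IGFBP5 overlap.

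**Figure D2:**
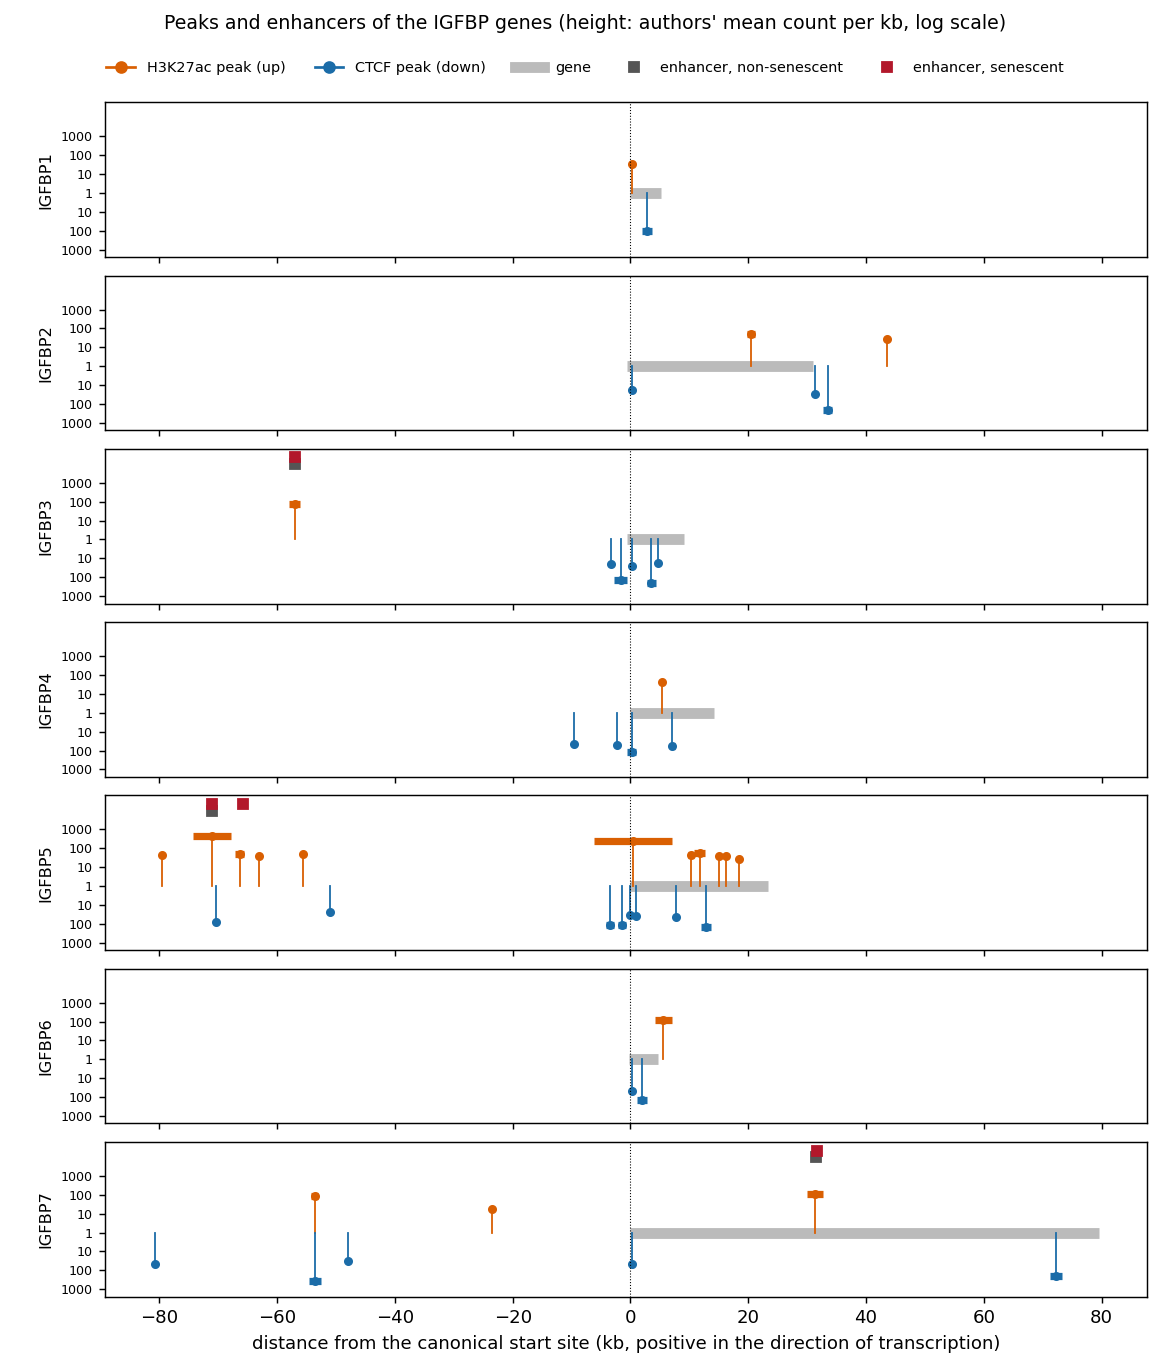
H3K27ac peaks (orange, upward) and CTCF peaks (blue, downward) of the 7 genes by distance from the canonical start site (kb, positive in the direction of transcription), with the height giving the authors' mean count per kb on a log scale, the grey bar the gene and the squares the enhancers listed in each state. IGFBP5 holds 11 of the H3K27ac peaks, and its 2 broad ones stand at the start site and 67.7 kb or more upstream.

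IGFBP5, a carrier that also binds the extracellular matrix, accounted for most of the H3K27ac of the family. The gene (ENSG00000115461.5, chr2:216672105-216695549, minus strand) had 11 H3K27ac peaks covering 27327 bp in all. The promoter peak (chr2:216688534-216701796) ran over the start site and exon 1, with its 5′ UTR and coding part, and ranked 378th in width and 485th in count among 51489 peaks. Of all H3K27ac peaks, 1.57% were 10 kb or wider. Its second large peak (chr2:216763293-216769839) lay 67.7 kb upstream of the start site, between IGFBP5 and the next protein-coding gene, TNP1. It was 6547 bp wide with 2818 counts. Per kb it had 430 counts, more than the promoter peak, and was higher than 98.6% of all H3K27ac peaks. Together these 2 peaks held 81.6% of the summed mean count of the family's 19 peaks. The upstream peak was not counted for IGFBP5 within 50 kb or with start sites of all genes, so this share depends on the main rule.

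The other 9 H3K27ac peaks of IGFBP5 were small, between 13.8 and 103 counts and between 27.5 and 55.6 counts per kb. All of them were below the median per kb of all peaks. Of these, 4 lay in introns (chr2:216682840-216684689 with 103 counts, chr2:216684756-216685815 with 46.0, and 2 of 500 bp with 20.4 and 19.9), and 1 of 13.8 counts lay on coding sequence of exon 4, closest to an IGFBP2 start site. The remaining 4 lay between 55.4 and 79.4 kb upstream, at 24.6, 19.0, 81.1 and 21.6 counts. Further upstream, at 98.9 and 144 kb, were peaks of 653 and 715 counts, which were closer to TNP1 and were not counted for IGFBP5. Both were in the enhancer lists of both states.

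**Figure D3:**
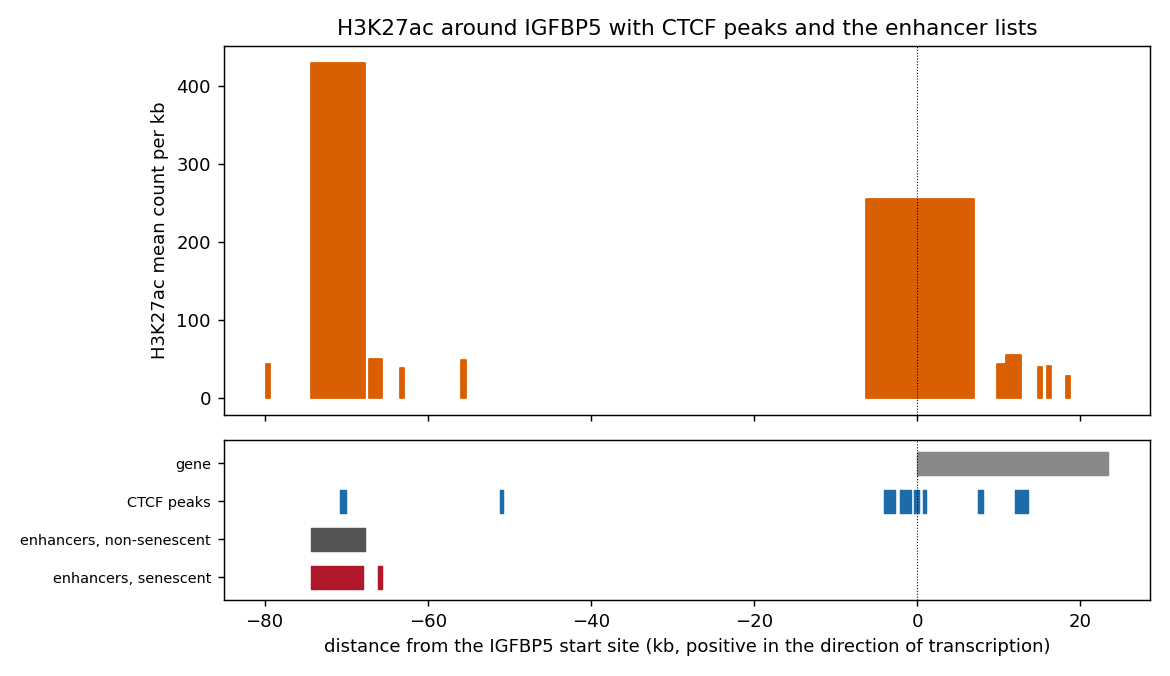
H3K27ac around IGFBP5 as authors' mean count per kb over the width of each peak (upper panel), with the gene, its CTCF peaks and the enhancers listed in non-senescent and senescent cells (lower panel), by distance from the start site in kb. The upstream block reaches 430 counts per kb and the promoter block 256, and 1 small enhancer of senescent cells has no counterpart in the row above it.

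The upstream peak of IGFBP5 was an enhancer in both states. Its borders were chr2:216763293-216769839 in non-senescent cells and chr2:216763436-216769832 in senescent cells, 6547 and 6397 bp, and the shared part was 0.977 of the combined span. It was wider than 95.4% of non-senescent and 92.5% of senescent enhancers. The senescent list held a further enhancer of 500 bp (chr2:216761123-216761622), the smallest width, 65.6 kb upstream. It fell inside an H3K27ac peak of 81.1 counts that had no listed enhancer in non-senescent cells. Of all senescent enhancers, 20.5% overlapped none of the non-senescent list. The mean of that H3K27ac peak spans both states, so whether its level differed between them was not tested.

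IGFBP5 had 8 CTCF peaks. Of these, 4 lay inside its promoter H3K27ac peak, with 15.6 and 21.5 counts on exon 1 and 146 and 162 counts at 0.742 and 2.755 kb upstream. Another of 60.5 counts lay inside the upstream enhancer. The strongest, with 243 counts (chr2:216681922-216683489), lay in an intron 12.1 kb downstream of the canonical start site, overlapped an H3K27ac peak of 103 counts, and held the first core shown above. The second core was in an intronic peak of 26.6 counts, and the third in a peak of 7.26 counts, 50.8 kb upstream. The 2 intronic cores were on the plus strand and the upstream core on the minus strand, so that they faced each other across the promoter, although the upstream peak was higher per kb than only 4.18% of all CTCF peaks.

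IGFBP2 (ENSG00000115457.10, chr2:216632828-216664436, plus strand) ends 7668 bp from the end of IGFBP5. It encodes a carrier that is abundant in fetal tissues. It had no H3K27ac at its start sites. Its intron held a peak of 74.1 counts (chr2:216653141-216654550, 52.6 per kb), 19.7 kb downstream of the canonical start site, which was in neither enhancer list. Its only promoter CTCF peak, on exon 1, had 8.10 counts. The strongest CTCF peak of the locus, 342 counts (chr2:216666124-216667720), lay between the ends of IGFBP2 and IGFBP5, and at 214 counts per kb it was higher than 94.6% of all CTCF peaks. A weaker one of 15.5 counts lay beside it. Neither held the core.

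IGFBP3 (ENSG00000146674.16, chr7:45912245-45921874, minus strand) and IGFBP1 (ENSG00000146678.10, chr7:45888360-45893660, plus strand) likewise end towards each other, 18584 bp apart. IGFBP3 is the main IGF carrier of blood. Of its 5 CTCF peaks, 4 lay within 2 kb of one of its 7 start sites. A peak of 343 counts (chr7:45921799-45924104) began 0.527 kb upstream of the canonical start site, and one of 329 counts (chr7:45916901-45918538) covered exon 2, 2.73 kb downstream. Per kb these were higher than 82.4% and 93.0% of all CTCF peaks. The other 3 peaks had between 6.15 and 7.07 counts. None of the 5 held the core and none overlapped H3K27ac.

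The only H3K27ac peak counted for IGFBP3 was far away, 56.2 kb upstream (chr7:45977441-45979163), with 128 counts over 1723 bp. It was an enhancer in both states, chr7:45977470-45979108 in non-senescent and chr7:45977441-45979109 in senescent cells. The shared part was 0.982 of the combined span, against a median of 0.777 over senescent enhancers with an overlap. It lay between IGFBP3 and the next protein-coding gene on that side, TNS3, which was 1353 kb from IGFBP3. At IGFBP1, the only other peak besides the weak H3K27ac peak on its start site was a CTCF peak of 183 counts (chr7:45890444-45892220) on exons 2 and 3, 1.96 kb downstream. No enhancer was counted for it in either state.

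IGFBP4, the substrate of PAPPA, and IGFBP6, the carrier that prefers IGF2, stand alone among unrelated genes. IGFBP4 (ENSG00000141753.7, chr17:40443450-40457725, plus strand) had a CTCF peak of 180 counts over its start site (chr17:40442885-40444452), at 69.5% GC. Its single H3K27ac peak, of 22.6 counts over 500 bp, was in an intron 5.16 kb downstream. The other 3 CTCF peaks had 17.3, 28.8 and 53.7 counts. IGFBP6 (ENSG00000167779.9, chr12:53097436-53102345, plus strand) had CTCF peaks of 11.8 counts on exon 1 and of 255 counts in an intron (chr12:53098703-53100543), the latter with the core. Its H3K27ac peak of 371 counts (chr12:53101772-53104788) covered the coding and 3′ UTR part of exon 4 and the start of SOAT2, 1140 bp further on, to which it was closer. The peak therefore stood at the promoter of SOAT2, an enzyme of cholesterol ester formation, and at the end of IGFBP6. Neither gene had an enhancer in either state.

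IGFBP7 (ENSG00000163453.11, chr4:57030773-57110385, minus strand) is the longest of the 7 genes at 79613 bp. Its canonical start site carried a CTCF peak of 32.7 counts at 75.6% GC and no H3K27ac. An intron held an H3K27ac peak of 330 counts (chr4:57077611-57080469, 116 per kb), which was higher than 71.4% of all peaks per kb. The peak lay 29.9 kb downstream of the canonical start site and 12008 bp upstream of the nearer annotated start site of the gene. It was an enhancer in both states, 1503 bp wide in non-senescent cells (chr4:57078110-57079612) and 2028 bp in senescent cells (chr4:57077671-57079698). The non-senescent one lay wholly inside the senescent one, and the shared part was 0.741 of the span, the lowest of the 3 shared enhancers and close to the median of 0.774 over all non-senescent enhancers with an overlap.

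The strongest CTCF peak of the family was also at this locus. It had 737 counts (chr4:57162907-57164936), 52.5 kb upstream of IGFBP7, and ranked 266th of 51457. It overlapped an H3K27ac peak of 99.3 counts (chr4:57163403-57164590) that was in neither enhancer list. Another CTCF peak of 388 counts (chr4:57037117-57039130) lay in an intron near the end of the gene and closer to the start of POLR2B. Neither held the core. The remaining peaks were weak, 2 CTCF peaks of 9.45 and 36.7 counts and an H3K27ac peak of 9.40 counts, all upstream of the gene.

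**Figure D4:**
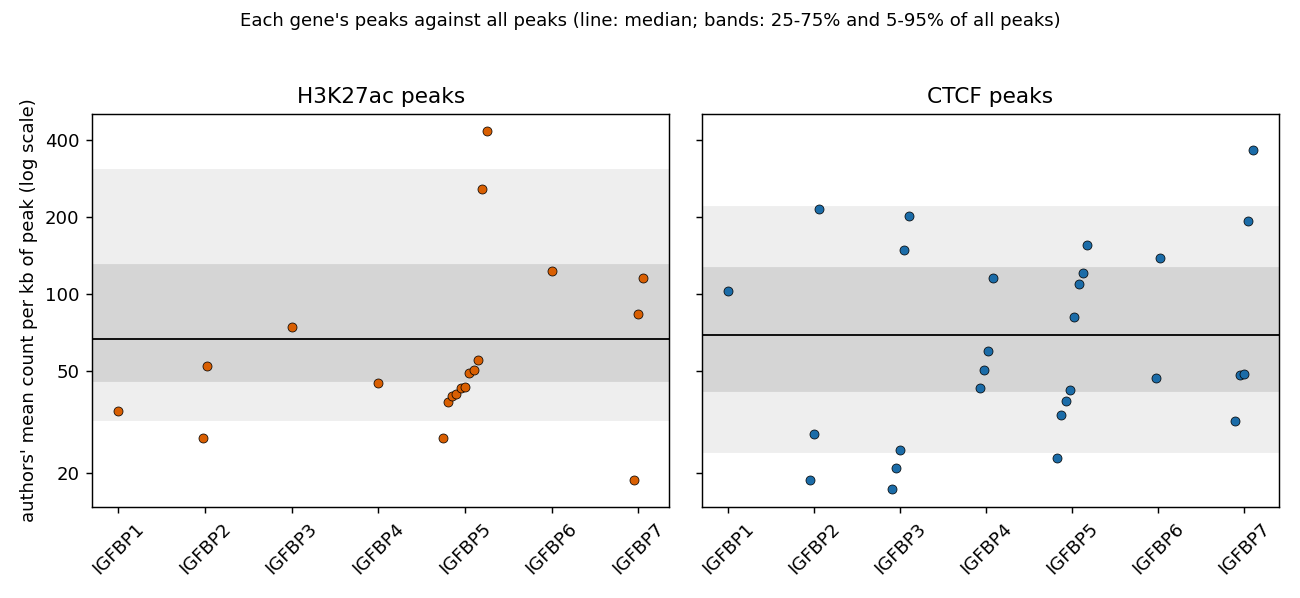
Authors' mean count per kb of each peak (log axis) for H3K27ac (left) and CTCF (right) by gene, with the median of all peaks as a line and their middle 25 to 75% and 5 to 95% as grey bands; a peak shared by IGFBP2 and IGFBP5 appears under both. The 2 IGFBP5 peaks at 256 and 430 counts per kb stand apart from its other 9, and the highest CTCF point is the IGFBP7 peak at 363 counts per kb.

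Across the family, 9 of 19 H3K27ac peaks were at the smallest width of 500 bp, against 16.1% of all peaks, and 6 of 19 were above the median per kb of all peaks. Their median was 46.0 counts, against 119 over all H3K27ac peaks. For CTCF, 12 of 28 were above the median per kb, and the median was 34.7 counts against 58.6. Of the 28 CTCF peaks, 7 overlapped an H3K27ac peak, 6 of them at IGFBP5 and 1 at IGFBP7, whereas 30.4% of all CTCF peaks did.

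Enhancers were counted for IGFBP3, IGFBP5 and IGFBP7 in both states. An enhancer was nearest to 27.8% of protein-coding genes in the non-senescent list and to 26.3% in the senescent list, against 3 of 7 here. The 3 non-senescent enhancers all overlapped a senescent one, and 1 of 4 senescent enhancers, at IGFBP5, had no overlap. Over the whole lists, 29.4% of non-senescent and 20.5% of senescent enhancers had none. In the other genes of the IGF system, enhancers were counted for 8 of 15 genes in non-senescent and 7 of 15 in senescent cells, with 31 and 29 enhancers. No region of senescence-associated Rb was counted for any of the 7 genes, and 3.74% of all protein-coding genes had one by the same rule, so a count of 0 of 7 says little about the family. The closest was 203 kb from IGFBP6, and for the other 6 genes the distance ranged from 897 to 3280 kb.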

How the data were processed

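H3K27ac, CTCF, H3K4me1 and Rb had been profiled by ChIP-seq in EndoC-βH3 cells, and libraries were grouped by antibody and treatment from the labels. According to the methods, reads were trimmed (Trim Galore) and mapped with Bowtie2 to hg38 by the authors, who removed duplicates (stated for H3K27ac, H3K4me1 and Rb, not for CTCF) and called peaks with HOMER (H3K27ac, H3K4me1) or MACS2 (CTCF, Rb). Enhancers were overlapping H3K4me1 and H3K27ac regions away from promoters. Tool versions and how replicates were merged are not given in the sources used here. The deposited signal of a peak is the authors' mean, over 6 libraries, of counts scaled by DESeq2 size factors. Besides it, the deposited tables hold the authors' fold change, its error and p-values for senescent against non-senescent cells. These are results of the authors' own comparison and were not used. A count test had been planned for the case of counts per library, which these tables do not hold, so none was run. Depth per library is not known from them.

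Start sites, genes and exons were those of GENCODE 44. Positions were read as counting from 0 and are printed from 1. All 24 chromosome names matched hg38, and 0 regions ended beyond a chromosome. An overlap was at least 1 bp. The 7 genes, with all their peaks, were named, with the strongest H3K27ac promoter peak and strongest CTCF peak in full, and neighbouring genes only where they bound or shared a peak or gene end. The genes and lists were chosen with earlier results of these data known. Python 3.11.15, numpy 2.4.6 and pandas 2.3.3 were used, and the nearest-gene rule and motif search were tested on simulated data. Alternatives were another distance, window, start-site set, count minimum of 50, core and overlap.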

Additional observations from a re-analysis of the deposited data

How the results depend on the processing

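No paired analysis was possible because the tables hold 1 mean over all libraries and no result comes from a test. For the same reason no library could be left out. Of 21 alternatives, 11 kept the count within 1.5 times and 10 moved it further. The number of H3K27ac peaks fell from 19 to 11 when start sites of all genes, noncoding ones included, were used, to 12 within 50 kb, and to 9 with a minimum of 50 counts, which also left 13 of 28 CTCF peaks. The same minimum left IGFBP5 as the 1 gene with an H3K27ac promoter peak. With a stricter core (2 of the free positions fixed), 0 of the 4 CTCF peaks kept it. The share of all CTCF peaks with the stricter core is not given here, so this count has no comparison. Non-senescent enhancers fell from 3 to 1, and senescent enhancers from 4 to 1, both within 50 kb and with start sites of all genes. The enhancer left in each list was that of IGFBP7, so the upstream enhancers of IGFBP3 and IGFBP5 were lost in both settings. The IGFBP5 H3K27ac peak of 2818 counts was lost with them. With start sites of all genes, a noncoding start site lay closer to these regions. With a window of 1 kb, 6 of the 7 genes had a CTCF promoter peak, and with the minimum of 50 counts, chosen after seeing the data, 5 did. The shares of all protein-coding genes with a promoter peak in these settings are not given here either, so these counts also have no comparison. The canonical start site alone, also added for CTCF after seeing the data, changed neither promoter count. Weak peaks of under 50 counts, 10 of the 19 for H3K27ac, rest on few reads per library, and a peak not listed is not shown to be absent at this depth.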
